A study of Equus caballus with 10 samples.

Results

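eca-miR-21, the horse form of miR-21, is 1 of 239 miRNAs in the deposited tables and was selected on its read counts, as the most abundant miRNA of the series. It had more counts than any other miRNA in all 10 libraries, and since its counts chose it, this position is a description and not a test. Small RNA had been sequenced from cultured horse joint cells that had taken up extracellular vesicles (EVs) from the other cell type of the joint. EV-recipient synoviocytes, the cells of the joint lining, came from 4 horses, were grown at 25% oxygen and received EVs pooled from the chondrocytes of 8 horses. EV-recipient chondrocytes, the cells of cartilage, came from 5 horses, were grown at 5% oxygen and received EVs pooled from the synoviocytes of 9 horses. In both groups the donor cells had been given 5-ethynyl uridine (5-EU), a uridine analogue built into new RNA, in 48 h rounds of labelling. The recipient cells were exposed to the EVs for 24 h, and 5-EU-labelled RNA was captured from them. The tenth library, of synoviocytes, is marked as negative in the group row of the tables, and by the study's methods control synoviocytes received EVs from unlabelled chondrocytes. Its sample label gives it no group, so it enters no test between groups, and its values are given as those of the control library.

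Recipient cell type, EV source, EV dose and oxygen changed together between the groups and cannot be told apart. By the study's account, EV-recipient synoviocytes were given more EVs per mL of medium than EV-recipient chondrocytes. The recipient cells of every library came from another horse, but the EVs of each donor cell type were 1 pool, so the spread between libraries holds no spread between EV preparations. In bulk RNA of this kind, fewer cells carrying a miRNA and less of it per cell cannot be told apart either. No replicates of the unlabelled control and no library of cells without EVs were analysed here.

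miR-21 is among the most abundant miRNAs of fibroblasts and other connective tissue cells. In human cells it is made from a gene that overlaps the end of VMP1. It is known from human and mouse work to repress PDCD4, an inhibitor of translation, SPRY family inhibitors of growth factor signalling, and RECK, an inhibitor of matrix metalloproteinases. It is studied for its part in fibrosis, cell survival and inflammation. A miRNA this abundant also bears on how the others are read. RPM, the deposited normalized unit, divide each count by all miRNA counts of its library, so a larger share of miR-21 lowers the RPM of every other miRNA in that library by arithmetic alone.

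The miRNA counts of a library, which are its depth here, ranged from 17151 to 436475 in EV-recipient synoviocytes and from 4891 to 444408 in EV-recipient chondrocytes, and came to 20330 in the control library. Synthetic spike-in RNAs, added in equal volume before library preparation, gave 127834 to 364813 counts per library. Both arms of miR-140, the miRNA known from cartilage, summed to 0 to 182 RPM in EV-recipient synoviocytes and 204 to 3805 RPM in EV-recipient chondrocytes, with 787 RPM in the control library. The summed RPM of 3 red blood cell miRNAs reached 16967 in EV-recipient synoviocyte 4, against 45.7 to 1022 in EV-recipient chondrocytes. A summed 2658 RPM of 3 leukocyte miRNAs was found in EV-recipient chondrocyte 1, the shallowest library. Endothelial, liver and muscle miRNAs summed to at most 470 RPM in any labelled library, and the part of these RNAs in the results on miR-21 was not tested.

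miR-21 made up 44.5%, 29.3%, 26.7% and 30.1% of the miRNA counts in EV-recipient synoviocytes 1 to 4. In EV-recipient chondrocytes 1 to 5 it made up 23.9%, 23.4%, 16.7%, 17.4% and 26.7%, and in the control library 17.4%. These shares rested on 194330, 56367, 8616 and 5161 counts of miR-21 in EV-recipient synoviocytes, on 1170, 104056, 6636, 49522 and 26328 counts in EV-recipient chondrocytes, and on 3537 counts in the control library. Every library with labelled EVs from chondrocytes therefore lay at or above every library with labelled EVs from synoviocytes, and EV-recipient synoviocyte 1 stood well above the other 8. The control library had a share like those of EV-recipient chondrocytes 3 and 4.

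The widest 95% Wilson interval was that of the shallowest library, EV-recipient chondrocyte 1, at 22.7 to 25.1%, and the interval of the control library was 16.9 to 17.9%. Such intervals cover counting error only, and take each read as a separate molecule. The libraries were amplified by PCR and carried no molecular identifiers, so the intervals may be too narrow. In the order of the shares, intervals overlapped between EV-recipient synoviocytes 4 and 2, between EV-recipient synoviocyte 3 and EV-recipient chondrocyte 5, and between EV-recipient chondrocytes 1 and 2. The interval of the control library overlapped those of EV-recipient chondrocytes 3 and 4. At the other steps in the order the intervals did not overlap. The boundary between the groups was among the ties, as the lowest share in EV-recipient synoviocytes exceeded the highest in EV-recipient chondrocytes by 8.89 RPM (Fisher's exact test on the counts of those libraries, p = 1).

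The mean share was 32.7 ± 8.04% in EV-recipient synoviocytes (SD, n = 4) and 21.6 ± 4.37% in EV-recipient chondrocytes (SD, n = 5), a difference of 11.0 percentage points. An exact two-sided permutation test gave p = 0.0159, the smallest that this design allows, and p = 0.0238 after Benjamini-Hochberg adjustment over the 3 exact tests run on miR-21. Of these tests, those on the share and on the ratio to all other miRNAs use the same counts on different scales and are not separate. Counting both in the adjustment makes the adjusted p smaller than it would be with only 1 of them. In RPM the means were 326574 ± 80421 in EV-recipient synoviocytes and 216291 ± 43653 in EV-recipient chondrocytes, a ratio of 1.51. By RPM miR-21 was 1 of 8 of the 49 miRNAs that passed a filter on low values whose groups did not overlap (16.3%), and 1 of 3 that were higher in EV-recipient synoviocytes (6.12%). For miR-21 this separation was the gap of 8.89 RPM, a tie by counting error. Without EV-recipient synoviocyte 1 the mean share in EV-recipient synoviocytes was 28.7 ± 1.78%, and the difference was 7.07 percentage points (exact permutation p = 0.0357, n = 3 and 5).

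**Figure D1:**
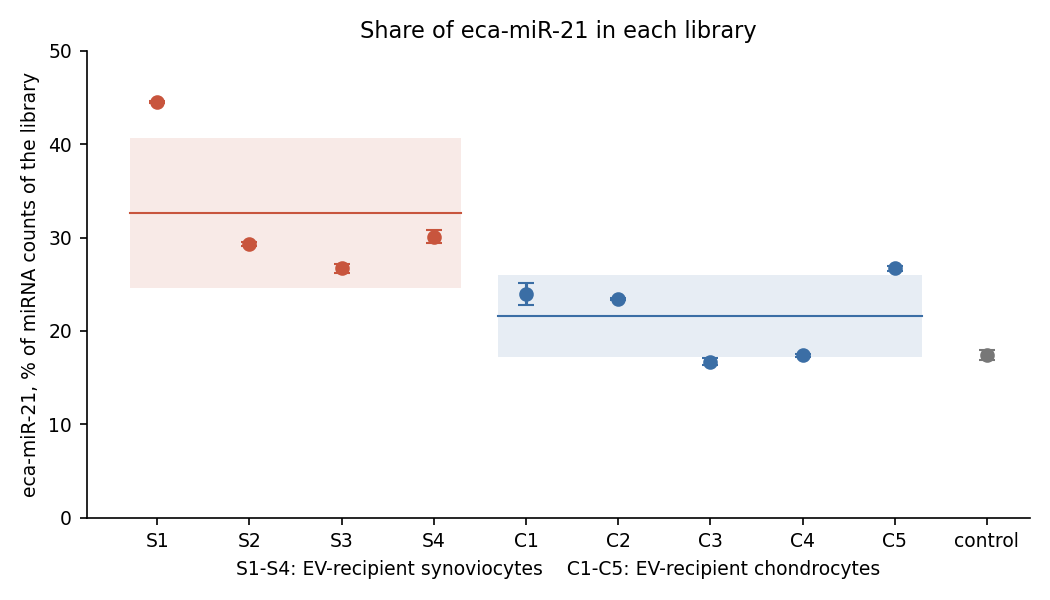
Share of eca-miR-21, as a percentage of the miRNA counts of each library, in EV-recipient synoviocytes (S1 to S4), EV-recipient chondrocytes (C1 to C5) and the control library. Points are libraries with 95% Wilson intervals, lines are group means and shaded bands are 1 SD. The points for S3 and C5 lie at the same height, at 26.7%, and S1 stands highest at 44.5%.

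edgeR's quasi-likelihood test with TMM scaling, which sets library sizes from the middle of the distribution of miRNA ratios, was run on the 49 miRNAs that passed the filter, set at 2045 RPM in at least 2 libraries. miR-21 had a log2 fold change of 0.76 (SE 0.26) for EV-recipient synoviocytes over EV-recipient chondrocytes, with an unadjusted p of 0.0124 and an adjusted p of 0.108. It was 1 of 9 miRNAs called at an unadjusted p under 0.05, which were 18.4% of those tested, and 1 of 4 called higher (8.16%). At an adjusted p under 0.05 there were 4 calls (8.16%), and miR-21 was not among them. Because the fold is relative to the other miRNAs of the same library, it does not give the amount of miR-21 per cell.

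The lead of miR-21 over the next miRNA was wider in EV-recipient synoviocytes. Its counts were 9.21, 3.80, 3.53 and 3.24 times those of the next miRNA in EV-recipient synoviocytes 1 to 4. They were 2.59, 2.75, 1.20, 2.06 and 3.01 times in EV-recipient chondrocytes 1 to 5 and 1.82 times in the control library. The groups did not overlap, with means of 4.95 ± 2.85 in EV-recipient synoviocytes and 2.32 ± 0.718 in EV-recipient chondrocytes (SD, n = 4 and 5). The next miRNA was miR-222, miR-221, miR-100 or, in EV-recipient synoviocyte 3, miR-143. miR-221 and miR-222 come from 1 gene cluster and are known in human cells to repress the cell cycle inhibitor CDKN1B. miR-100 belongs to the miR-99 family, which is known to repress MTOR. In EV-recipient chondrocyte 3 miR-21 was nearly matched, with 6636 counts of miR-21 against 5543 of miR-221.

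The miRNAs needed to reach 50% of the counts numbered 3, 4, 5 and 4 in EV-recipient synoviocytes, against 5, 5, 5, 7 and 5 in EV-recipient chondrocytes, and 6 in the control library. With miR-21 left out, they numbered 9, 8, 7 and 8 in EV-recipient synoviocytes, 6, 7, 7, 8 and 8 in EV-recipient chondrocytes and 8 in the control library. The mean was therefore lower in EV-recipient synoviocytes with miR-21 and higher without it, at 4 against 5.4 miRNAs and 8 against 7.2 miRNAs, and the groups overlapped both times (exact permutation p = 0.0794 and p = 0.365). The 5 most abundant miRNAs of a library held 51.5 to 61.9% of its counts in EV-recipient synoviocytes and 44.8 to 54.7% in EV-recipient chondrocytes.

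**Figure D2:**
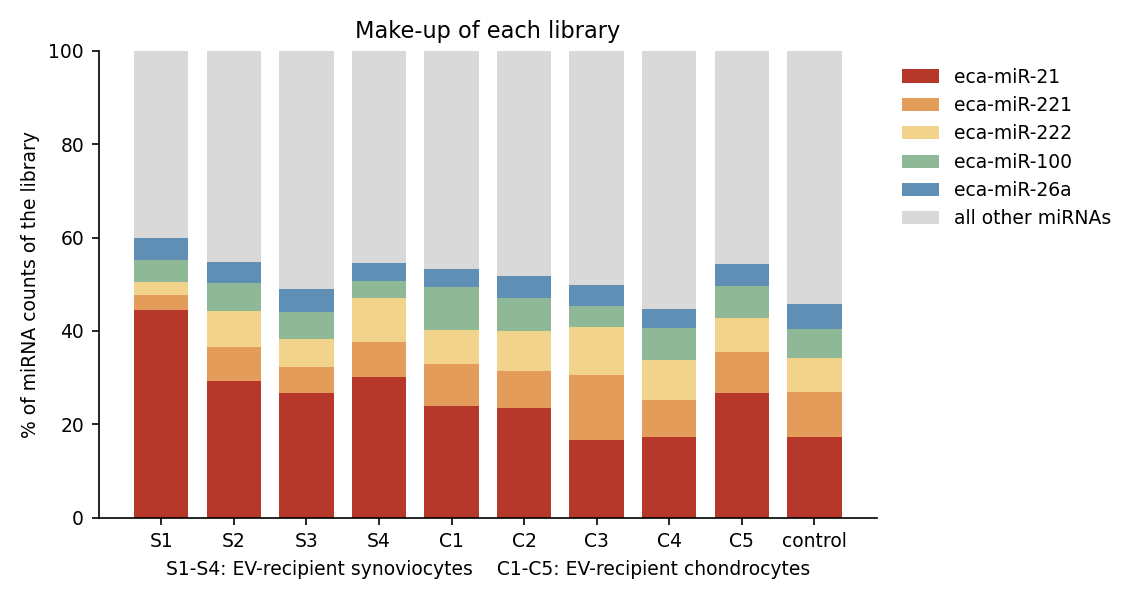
Stacked percentages of the miRNA counts of each library for eca-miR-21, the 4 miRNAs next in mean RPM and all others, in EV-recipient synoviocytes (S1 to S4), EV-recipient chondrocytes (C1 to C5) and the control library. The eca-miR-21 segment is larger than that of any other single miRNA in every library, and in C3 the segment of eca-miR-221, at 13.97%, comes closest to it.

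Ratios of miR-21 to single other miRNAs do not depend on any library size. Of the 48 other miRNAs tested, 38 had counts in all 9 labelled libraries and gave a ratio in each. Of these 38, 35 had a higher mean log2 ratio in EV-recipient synoviocytes. In 10 of them (26.3%) all EV-recipient synoviocytes lay above all EV-recipient chondrocytes, and in 0 of them below. The median difference was 0.79 on the log2 scale, or 1.73-fold. All 38 ratios share the miR-21 counts, so they are not separate evidence.

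Against miR-221, miR-21 had 13.8, 4.05, 4.77 and 3.96 times the counts in EV-recipient synoviocytes and 2.63, 2.90, 1.20, 2.22 and 3.01 times in EV-recipient chondrocytes, a 2.51-fold difference without overlap. Against miR-100 the ratios were 9.21, 4.93, 4.75 and 8.27 in EV-recipient synoviocytes and 2.59, 3.35, 3.83, 2.50 and 3.91 in EV-recipient chondrocytes, a 2.04-fold difference without overlap. Against miR-26a, a miRNA known to repress the histone methyltransferase EZH2, they were 9.65, 6.55, 5.37 and 7.69 in EV-recipient synoviocytes and 6.13, 4.87, 3.73, 4.20 and 5.75 in EV-recipient chondrocytes. This 1.47-fold difference came with overlapping groups. The lead of miR-21 over miR-222 also overlapped between the groups, at 2.13-fold.

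Among the 38 miRNAs counted in all 9 labelled libraries the ratio differed most against miR-27b, a miRNA made from the same cluster as miR-23b, at 66.1, 66.5, 31.6 and 78.2 in EV-recipient synoviocytes and 4.52, 7.36, 3.55, 4.96 and 7.33 in EV-recipient chondrocytes. The 10.8-fold gap combines the higher miR-21 and the lower miR-27b of EV-recipient synoviocytes. miR-23b, with 5.30-fold, and miR-191a, with 2.63-fold, also separated the groups. The 3 of the 38 with a lower mean ratio in EV-recipient synoviocytes were miR-143, miR-181b and let-7e, at 0.256, 0.348 and 0.804-fold, each with overlapping groups. miR-143, known from smooth muscle and other mesenchymal cells, was thus on average higher relative to miR-21, with ratios of 12.3, 26.2, 3.53 and 10.1 in EV-recipient synoviocytes and 14.8, 54.4, 99.0, 57.9 and 23.6 in EV-recipient chondrocytes. Against miR-103 the fold was 1.07, with ratios of 22.7, 11.0, 10.1 and 16.3 in EV-recipient synoviocytes and 61.6, 9.82, 6.86, 5.23 and 19.1 in EV-recipient chondrocytes. The ratio of 61.6, in EV-recipient chondrocyte 1, rests on 19 counts of miR-103. Counts of miR-103 and miR-107a, whose mature forms are nearly identical in sequence, followed each other in every library and may share reads.

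**Figure D3:**
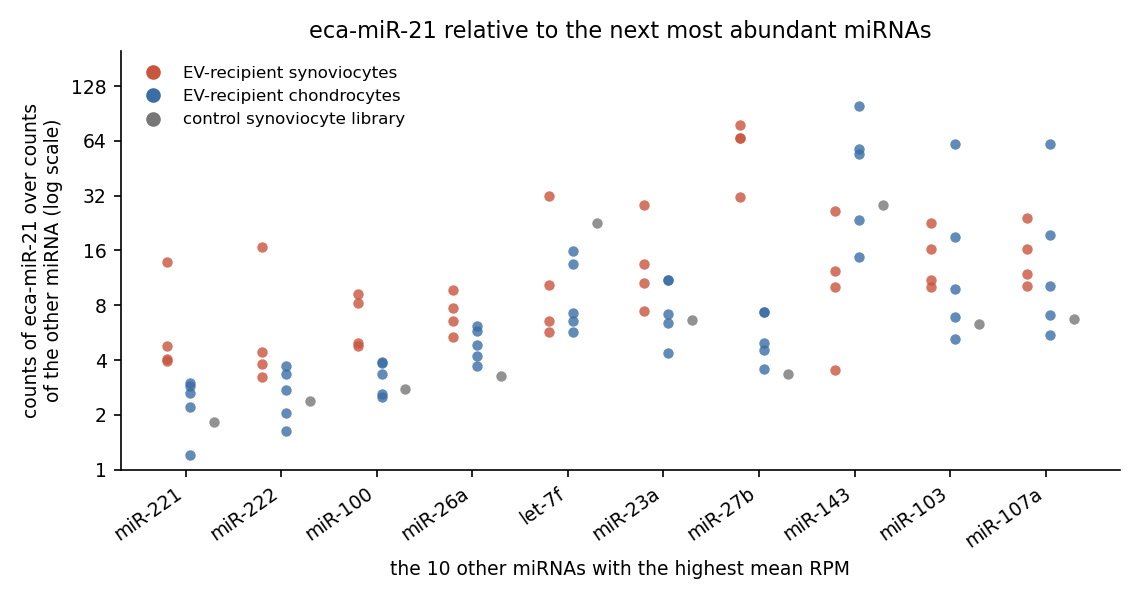
Counts of eca-miR-21 over counts of each of the 10 other miRNAs with the highest mean RPM, on a log axis, in EV-recipient synoviocytes, EV-recipient chondrocytes and the control library. Each point is a library. The synoviocyte points lie above all chondrocyte points for miR-221, miR-100 and miR-27b, and for miR-143 the 3 highest points are chondrocyte libraries.

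Against the sum of all other miRNAs, the log2 ratio of miR-21 was -0.32, -1.27, -1.46 and -1.22 in EV-recipient synoviocytes and -1.67, -1.71, -2.32, -2.25 and -1.46 in EV-recipient chondrocytes, with -2.25 in the control library. The mean difference was 0.82, or 1.76-fold (exact permutation p = 0.0159, the smallest possible, adjusted p = 0.0238). The order of the libraries is that of the shares, so this test is not separate evidence. This fold exceeds the ratio of 1.51 between mean shares because a share takes in miR-21 itself.

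The spike-ins gave a scale outside the miRNAs. There were 1.11, 0.275, 0.0639 and 0.0191 counts of miR-21 per spike-in count in EV-recipient synoviocytes. EV-recipient chondrocytes had 0.00321, 0.551, 0.0519, 0.250 and 0.102, and the control library had 0.0137. The groups overlapped almost wholly, and within a group the highest library exceeded the lowest 58.2-fold in EV-recipient synoviocytes and 172-fold in EV-recipient chondrocytes. All other miRNAs together spread 31.2-fold in EV-recipient synoviocytes and 177-fold in EV-recipient chondrocytes on the same scale. Total miRNA counts per spike-in count were 0.0786 in the control library. They were lower in EV-recipient synoviocyte 4 (0.0634) and in EV-recipient chondrocyte 1 (0.0134). The part of RNA captured without the label in the labelled libraries was not tested.

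On the log2 scale the mean of miR-21 per spike-in count was -2.85 ± 2.54 in EV-recipient synoviocytes and -3.74 ± 2.85 in EV-recipient chondrocytes (SD, n = 4 and 5). The difference of 0.89 was well within that spread (exact permutation p = 0.667), and it turned to -0.11 without EV-recipient synoviocyte 1 and to -0.25 without EV-recipient chondrocyte 1. A group difference in the amount of miR-21 per input was not detectable here, while its share among miRNAs varied only 1.67-fold within EV-recipient synoviocytes and 1.60-fold within EV-recipient chondrocytes.

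**Figure D4:**
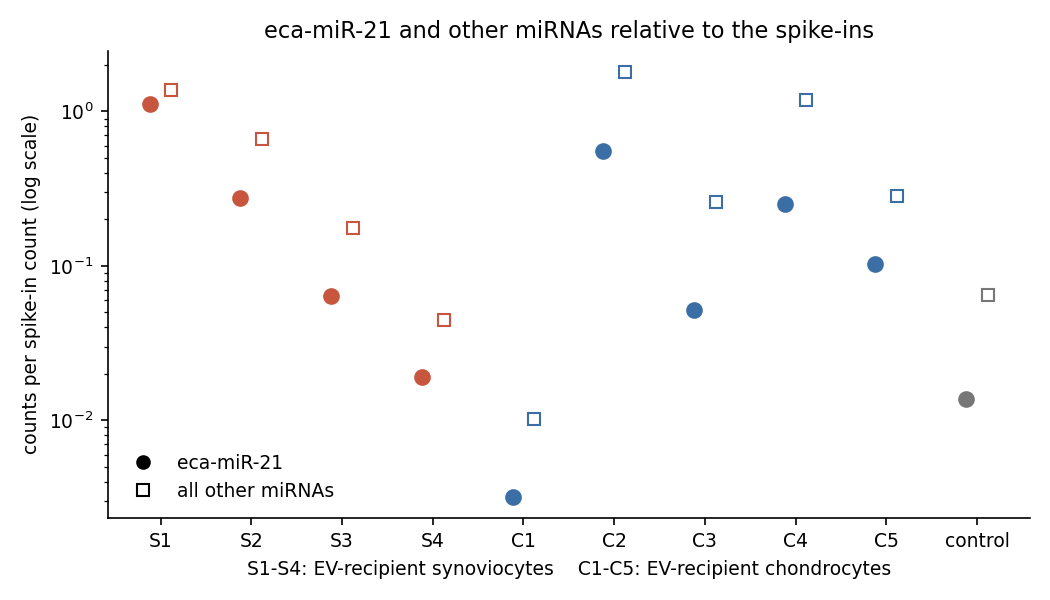
Counts per spike-in count, on a log axis, for eca-miR-21 (filled circles) and for all other miRNAs together (open squares) in EV-recipient synoviocytes (S1 to S4), EV-recipient chondrocytes (C1 to C5) and the control library. Both quantities rise and fall together across libraries, and C1 is lowest, at 0.00321 for eca-miR-21.

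Leaving miR-21 out of the denominator multiplied the RPM of every other miRNA by 1.80, 1.41, 1.36 and 1.43 in EV-recipient synoviocytes 1 to 4. The factor was 1.31, 1.31, 1.20, 1.21 and 1.36 in EV-recipient chondrocytes 1 to 5 and 1.21 in the control library. The mean factor was 1.50 ± 0.202 in EV-recipient synoviocytes and 1.28 ± 0.0708 in EV-recipient chondrocytes. Between the groups the factor differed by 0.23 on the log2 scale, or 1.17-fold, and every other miRNA moved up by about that much in EV-recipient synoviocytes. Without EV-recipient synoviocyte 1 the difference of the factors was 0.135 on the log2 scale.

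In RPM, miR-21 was 110282 higher in EV-recipient synoviocytes, and the other 238 miRNAs were by construction 110282 lower in sum. Of these, 112 miRNAs were higher in EV-recipient synoviocytes, by 84746 RPM in sum, and the rest differed by -195028 RPM in sum. The largest negative differences were -36592 RPM for miR-221, -34800 RPM for miR-27b, -18903 RPM for miR-222, -18626 RPM for miR-100 and -15038 RPM for miR-99a. miR-21 alone held 71.0% of the summed squared differences between group means, against 7.82% for miR-221 as the next. It also held 65.5% of the variance in RPM across the 9 labelled libraries, so that unscaled RPM distances between these libraries are mostly distances in miR-21. With miR-21 left out, 108 of the other miRNAs had a lower mean in EV-recipient synoviocytes and 130 a higher one.

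The calls among the 48 other miRNAs were compared between library sizes with and without miR-21, with no further scaling. With miR-21 in the library size, 11 were called at an unadjusted p under 0.05 (22.9%), of which 3 were higher and 8 lower in EV-recipient synoviocytes (lower, 16.7%). Without it, 7 were called (14.6%), of which 3 were higher and 4 lower (lower, 8.33%). The median log2 fold change of the 48 was -0.08 with miR-21 and 0.19 without it, and the number below 0 was 27 with miR-21 and 19 without it. Calls at an adjusted p under 0.05 numbered 4 (8.33%) both ways. With each of the 9 libraries left out in turn, leaving out miR-21 gave fewer lower calls in all 9 runs and more higher calls in 7. The fall in total calls did not hold in every run. Without EV-recipient chondrocyte 1 the total was 11 of 48 both ways. Without EV-recipient synoviocyte 4 it was 12 with miR-21 and 13 without it.

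The 7 miRNAs called both ways were miR-27b, miR-23b, miR-31 and miR-191a, which were lower in EV-recipient synoviocytes, and miR-143, miR-181a and miR-181b, which were higher. miR-31 was near the floor, with no counts in 4 of the 9 labelled libraries and 38.4 ± 76.8 RPM in EV-recipient synoviocytes. miR-181a and miR-181b were low in EV-recipient chondrocytes, at 570 ± 561 and 903 ± 678 RPM. miR-181a had no counts in 1 of the 9 labelled libraries. miR-221, miR-199a-5p, miR-99a and miR-196b were called lower with miR-21 in the library size and not without it. With TMM scaling miR-199a-5p was called lower both with miR-21 (edgeR unadjusted p = 0.0370) and without it (unadjusted p = 0.0367), and the other 3 were not called. For miR-221 the log2 fold change was -0.70 (SE 0.28, edgeR unadjusted p = 0.0277) with miR-21 and -0.50 (SE 0.25, unadjusted p = 0.0652) without it. For miR-199a-5p, known from fibroblasts and made beside miR-214, it was -0.72 (edgeR unadjusted p = 0.0180) with miR-21 and -0.50 (unadjusted p = 0.0948) without it. For miR-99a, of the same family as miR-100, it was -1.13 (edgeR unadjusted p = 0.0312) and -0.91 (unadjusted p = 0.0556), and for miR-196b, encoded in the HOX clusters, -0.79 (unadjusted p = 0.0475) and -0.52 (unadjusted p = 0.184). The values moved by less than their standard errors. Their edgeR unadjusted p-values ran from 0.0180 to 0.0475 with miR-21 and from 0.0556 to 0.184 without it. None of these 4 had an adjusted p under 0.05 either way, at 0.144 to 0.207 with miR-21 and 0.305 to 0.465 without it.

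The RPM of miR-221 shows the step in single libraries. With miR-21 counted, miR-221 had 32171, 72352, 56029 and 76031 RPM in EV-recipient synoviocytes and 90983, 80838, 139661, 78452 and 88755 RPM in EV-recipient chondrocytes, without overlap. Without miR-21 it had 57990, 102358, 76439 and 108757 RPM in EV-recipient synoviocytes and 119592, 105552, 167700, 94966 and 121085 RPM in EV-recipient chondrocytes, and EV-recipient synoviocyte 4 then lay above EV-recipient chondrocytes 2 and 4. miR-199a-5p and miR-22 also separated the groups only with miR-21 in the denominator, and miR-99b only without it. The gaps were narrow with miR-21 counted, at 10378 against 11001 RPM for miR-199a-5p and 4233 against 4444 RPM for miR-22. For miR-99b, which had 0 counts in EV-recipient chondrocyte 1, the gap was 2961 against 2601 RPM without miR-21. Whether these gaps exceed counting error was not tested. Among the 48, 7 miRNAs (14.6%) did not overlap between groups in RPM with miR-21, against 5 (10.4%) without it.

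miR-26a differed less with miR-21 counted than without it. It had 46156, 44783, 49707 and 39123 RPM in EV-recipient synoviocytes and 39051, 48100, 44824, 41415 and 46416 RPM in EV-recipient chondrocytes with miR-21 counted. Without miR-21 the RPM were 83198, 63356, 67814 and 55963 in EV-recipient synoviocytes and 51330, 62806, 53823, 50133 and 63323 in EV-recipient chondrocytes. The log2 fold change was 0.03 with miR-21 and 0.26 without it, neither past the threshold (edgeR unadjusted p = 0.880 and unadjusted p = 0.253). The groups overlapped both ways.

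Among the other abundant miRNAs, the log2 fold change was -0.37 with miR-21 and -0.19 without it for miR-222, and -0.45 and -0.24 for miR-100. It was 0.49 and 0.73 for let-7f, of the family known to repress growth genes, and -0.17 and 0.03 for miR-23a. For miR-27b it was -2.79 and -2.54, and for miR-143 2.44 and 2.62. miR-103 had 0.19 and 0.43, and miR-107a 0.18 and 0.42. Across the 48, the shift had a median of 0.23 and ran from 0.18 for miR-143 to 0.44 for miR-31. The shift of miR-31 rests on EV-recipient synoviocyte 1, the only library of its group with miR-31 counts. In 8 miRNAs, none of them called, the log2 fold change went from below 0 to above it. With TMM scaling the choice hardly mattered, as leaving miR-21 out changed no call, moved no log2 fold change by more than 0.0257, and gave 3 higher and 5 lower calls both ways.

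**Figure D5:**
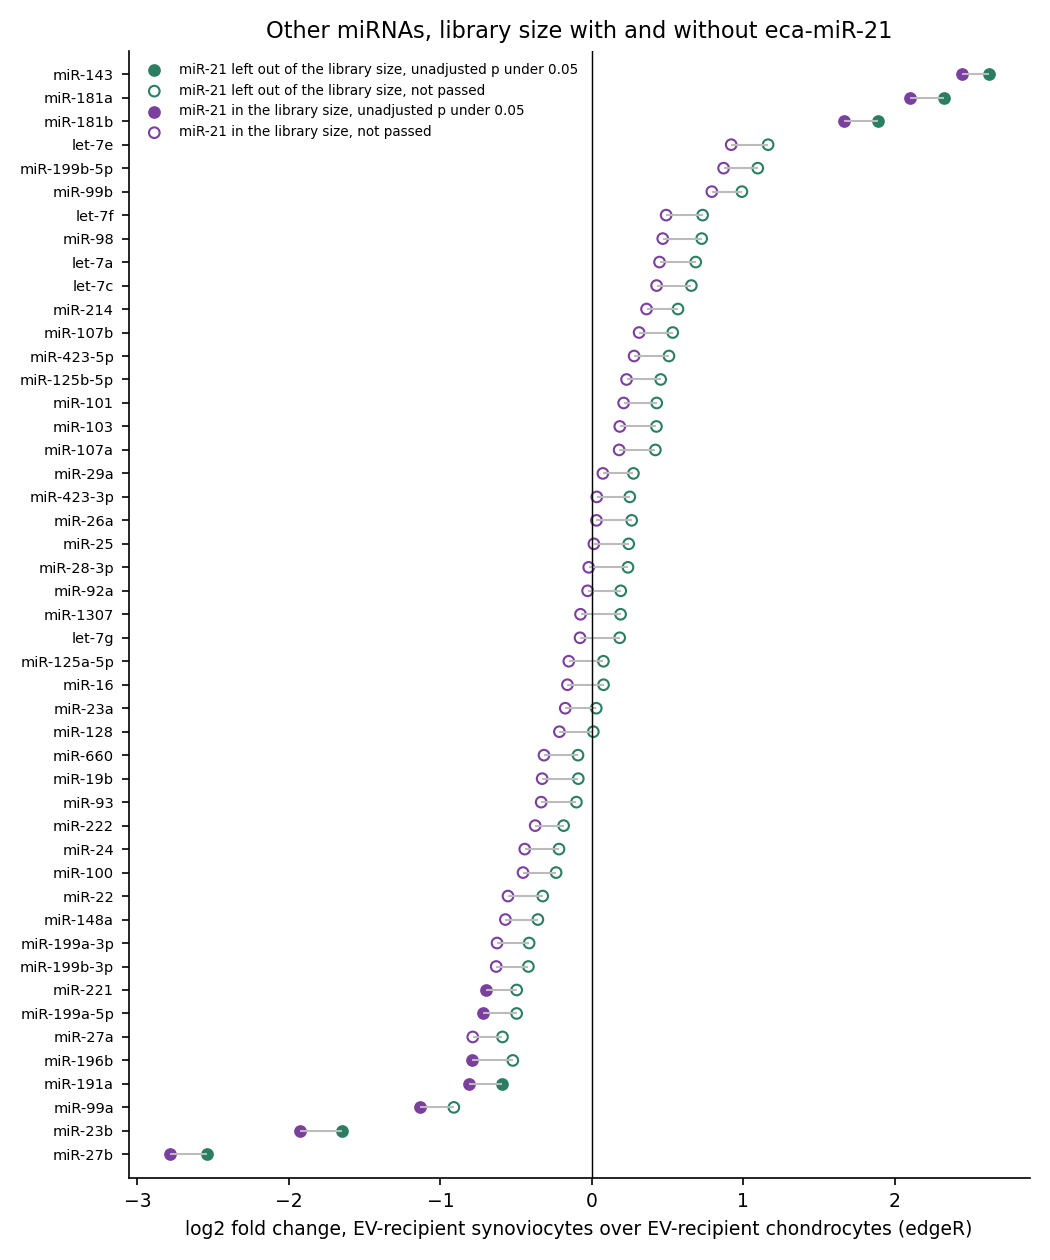
Log2 fold changes of EV-recipient synoviocytes over EV-recipient chondrocytes from edgeR for 47 of the other miRNAs, with eca-miR-21 left out of the library size (green) and in it (purple), where filled points had an unadjusted p under 0.05. miR-31, called both ways, lies beyond the left edge and is not drawn. Green points lie to the right of purple ones throughout, by a median of 0.23, and miR-221, miR-199a-5p, miR-196b and miR-99a are filled only in purple.

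Levels across the 9 labelled libraries were then compared with those of miR-21. The other miRNAs were taken as log2 RPM with miR-21 left out of the denominator, and miR-21 as log2 RPM over all miRNA counts. miR-26a had the highest Pearson correlation with miR-21 (r = 0.817), followed by miR-143 (0.811) and miR-181b (0.682). The lowest were miR-191a (-0.801), miR-221 (-0.715) and miR-222 (-0.652). Leaving miR-21 out of the denominator lifts a miRNA most where the share of miR-21 is highest, which pushes r upward by arithmetic. The correlations also hold the group difference, and n is 9, so these are descriptions. With miR-21 counted in the denominator the correlation of miR-26a was 0.162, while that of miR-143 was 0.772 and that of miR-191a -0.903. Taken as deviations from the group means, the correlations were 0.702 for miR-26a, 0.573 for miR-143 and 0.364 for miR-181b, and -0.505 for miR-191a, -0.484 for miR-221 and -0.631 for miR-222. The median over the 48 was 0.113 without miR-21 in the denominator and -0.0720 with it.

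A list of 15 miRNAs known from fibroblasts, fibrosis and inflammation set miR-21 beside others of its setting. All 15 were found in the tables and 8 passed the filter. Of these 8, miR-143 was called higher in EV-recipient synoviocytes with TMM scaling (log2 fold change 2.62, SE 0.66, edgeR adjusted p = 0.0284), and miR-199a-5p was called lower at an unadjusted p of 0.0370 (-0.55, SE 0.24, adjusted p = 0.202). The other 6, which included miR-214, miR-29a, known to repress collagens, and miR-24, did not pass. The 2 calls among 8 stand beside 9 among the 49 tested (18.4%). The median log2 fold change of the 8 was 0.28, against 0.06 over all 49 tested and 0.76 for miR-21. The 7 below the filter had group means of at most 1461 RPM. Among them, miR-145, miR-29c, miR-146a, miR-146b and miR-34a had higher means in EV-recipient synoviocytes, and miR-29b and miR-155 had lower ones. miR-146a, an inhibitor of inflammatory signalling, had 1461 ± 506 RPM in EV-recipient synoviocytes and 284 ± 307 RPM in EV-recipient chondrocytes (SD, n = 4 and 5). miR-155, known to promote inflammatory signalling, had 199 ± 137 RPM in EV-recipient synoviocytes and 621 ± 812 RPM in EV-recipient chondrocytes. The most abundant of the 15 was miR-143 in EV-recipient synoviocytes, with a mean of 38194 RPM, and miR-29a in EV-recipient chondrocytes, with a mean of 17242 RPM, both far under miR-21.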

How the data were processed

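Raw counts of 239 miRNAs, with those of 8 spike-in calibrators, were deposited for 10 libraries. RPM were deposited too, and matched counts divided by the summed miRNA counts of the library within 0.0427% (values of 100 RPM or more). Per the labels, their processing notes name cutadapt 3.3, Bowtie 1.3.0 and edgeR 3.32. miR-21, the lists and the rule for named miRNAs (the 10 other miRNAs highest in mean RPM, those whose call or overlap changed with the denominator, and the 3 most and 3 least alike) were chosen with earlier results of these data known.

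Counts were tested with edgeR 4.0.16 (R 4.3.3), quasi-likelihood, TMM and Benjamini-Hochberg adjustment. The filter kept miRNAs with at least 2045 RPM, which is 10 counts in the smallest library, in at least 2 of 9 libraries. The fit was tested on simulated data. Single values were compared with two-sided exact permutation tests (scipy 1.17.1), and p and adjusted p were read at 0.05. Alternatives covered scaling, tools (DESeq2 1.42.0, limma 3.58.1), pseudocounts of 1 and 10, filter, spike-ins, a replicate block and leaving out each library. Replicate libraries differed beyond counting noise, with reads taken as independent. No sequences or coordinates are given.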

Additional observations from a re-analysis of the deposited data

Results flagged for a closer look

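In EV-recipient synoviocyte 1, miR-21 had 9.21 times the counts of the next miRNA, miR-100, while the other EV-recipient synoviocytes had 3.24 to 3.80 times. The gap to the nearest library was 0.907 of the range of the group, over the 95% limit of Dixon's test for 4 samples. Of 10 sets of values, each tested at both ends (20 tests), 1 stood out, where chance gives about 1 in 20 sets. The sets are different measures of the same miR-21 counts, so no excess over chance is claimed. The share of miR-21 in that library, 44.5%, stayed just under the limit, with a gap of 0.810 of the range.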

How the results depend on the processing

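The log2 fold change of miR-21 from edgeR, 0.76, kept its direction and an unadjusted p under 0.05 in 10 of 11 alternatives of scaling, tool, filter and block, and its range over all 11 was 0.59 to 0.94. With spike-in counts as library size it was 0.94 (edgeR unadjusted p = 0.548). The adjusted p was under 0.05 with DESeq2 (0.0233) and with no filter on low counts (0.00532). Leaving out each library gave 0.50 to 0.89, with adjusted p of 0.0753 to 0.256, and the lowest value came without EV-recipient synoviocyte 1. The difference in share was 5.55 points when spike-in counts were added to the denominator (exact permutation p = 0.508) and 7.07 to 13.0 when each library was left out. The log2 ratio to all other miRNAs, 0.82, was 0.57 to 0.95 with libraries left out. The log2 difference in miR-21 per spike-in count was -0.25 to 1.85, and was below 0 without EV-recipient synoviocyte 1 (-0.11) and without EV-recipient chondrocyte 1 (-0.25).

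Counts of calls moved with the filter, which sets how many miRNAs are tested. The 9 calls of 49 tested with TMM became 44 of 239 with no filter and 17 of 100 with edgeR's filterByExpr, similar shares of those tested. Among the other miRNAs, the 11 calls of 48 with miR-21 in the library size became 48 of 238 and 18 of 99, and the 7 of 48 without it became 43 of 238 and 14 of 99. With spike-ins as library size, edgeR called 0 miRNAs, also at an unadjusted p under 0.05. With libraries left out, the 9 became 7 to 16 (16 without EV-recipient synoviocyte 4), the 11 became 7 to 12 (7 without EV-recipient synoviocyte 3), and the 7 became 5 to 13 (13 without EV-recipient synoviocyte 4, 11 without EV-recipient chondrocyte 1). The difference between groups in the mean log2 denominator factor, 0.23, was 0.135 to 0.269 with libraries left out.

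Libraries of the 2 groups share replicate numbers, but the correlations of their deviations were -0.378 to 0.049 and no library was most like its own number, so the numbers do not pair them. With the replicate block, miR-21 had 0.86 (edgeR unadjusted p = 0.0171, adjusted p = 0.257), the 9 calls became 6, the 11 became 5 and the 7 became 5. Depth limits mainly EV-recipient chondrocyte 1, where 10 counts equal 2045 RPM.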
